A study of Homo sapiens with 12 samples.

Results

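The 189 microRNA rows described here are the probe sets of a whole-transcript array whose only gene symbol begins with MIR and a digit or with MIRLET. They include host transcripts, whose symbols end in HG. The rule that chose them uses only names in the platform's annotation and no values, though earlier results of these data were known. They make up 189 of the 32321 probe sets in the table, of which 19158 carry 1 symbol. Each row stands for a different symbol: 173 are microRNA genes and 16 are host transcripts. Another 32 probe sets carry such a symbol together with a second one and were not used, so MIR155HG, which shares its row, has no value here.

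A microRNA begins as a long primary transcript, often the intron of a coding gene or a dedicated host RNA. The nuclear enzyme DROSHA with its partner DGCR8 cuts out a hairpin, exportin 5 carries it to the cytoplasm, and DICER1 trims it to the short mature strand that guides an Argonaute protein to messenger RNAs. The strand pairs with its targets mainly through the seed, its bases 2 to 8, and hairpins of 1 transcript can therefore share or differ in their targets. In B cells and their tumours the miR-17 cluster, miR-21, miR-142 and miR-155 are among the best studied of these RNAs. The probe sets read primary or precursor transcripts, so a value is not the level of a mature microRNA.

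The 2 lines on the arrays, L-1236 and U-HO1, are established lines grown from Hodgkin lymphoma, a tumour of B-cell origin. Each line was transduced with an shRNA against the transcription factor GATA-3, or with a control shRNA without function, kept for 3 days and sorted for GFP, and the amplified RNA of 25000 GFP-positive cells was hybridised per array. There were 4 groups of 3 arrays: L-1236 labelled control, L-1236 labelled knockdown, U-HO1 labelled control and U-HO1 labelled knockdown. L-1236 grew in RPMI and U-HO1 in IMDM, so the line and the medium cannot be told apart in any difference between the lines. The submitters call the samples independent and give no separate cultures by name, so the spread behind each p-value is that between arrays and may be technical.

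MIR17HG, the row with the largest difference between the lines, holds 6 hairpins. For each hairpin 1 mature strand is printed, and the strand from its other arm is left out. Sequences are those of RefSeq for the GRCh38.p14 assembly, written 5′ to 3′ with the seed in capitals.
hsa-miR-17-5p: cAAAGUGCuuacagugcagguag
hsa-miR-18a-5p: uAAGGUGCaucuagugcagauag
hsa-miR-19a-3p: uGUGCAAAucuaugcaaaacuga
hsa-miR-20a-5p: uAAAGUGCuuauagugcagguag
hsa-miR-19b-3p: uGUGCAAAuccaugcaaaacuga
hsa-miR-92a-3p: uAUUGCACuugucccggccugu
Among the printed strands, miR-17 and miR-20a share a seed, miR-19a and miR-19b share another, and miR-18a and miR-92a each have their own.

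Among the called rows, the microRNA genes with the largest differences between the lines encode strands with different seeds, shown next. The table gives only the 3p strand for miR-186.
hsa-miR-186-3p: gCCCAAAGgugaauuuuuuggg
hsa-miR-142-5p: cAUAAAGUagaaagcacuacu
hsa-miR-142-3p: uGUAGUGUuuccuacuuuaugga
hsa-miR-217-5p: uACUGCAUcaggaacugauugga
hsa-miR-216a-5p: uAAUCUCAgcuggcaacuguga
hsa-miR-27a-3p: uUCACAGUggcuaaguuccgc
hsa-miR-196a-5p: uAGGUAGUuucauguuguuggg
In contrast, let-7d and let-7i have the same seed, as do miR-30e and miR-30c, and these pairs are printed because their rows differed in their calls.
hsa-let-7d-5p: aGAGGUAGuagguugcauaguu
hsa-let-7i-5p: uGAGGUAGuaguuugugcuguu
hsa-miR-30e-5p: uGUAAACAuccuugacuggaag
hsa-miR-30c-5p: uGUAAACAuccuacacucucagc
Mature strands were found for 164 of the 189 rows, in 300 entries with 226 distinct seeds. Hairpins were found for 155 rows and ran from 63 to 119 bases, with a median of 85.

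Across the table the values ran from 3.86 to 13.99, taken as log2, and the array medians from 6.96 to 7.09. GATA3 read 9.95 to 10.69 on the L-1236 arrays labelled control and 10.00 to 10.80 on those labelled knockdown. In U-HO1 it read 10.24 to 11.24 on arrays labelled control and 10.12 to 11.07 on those labelled knockdown, and several arrays of both lines went against their label, with overlapping groups. Markers of T cells, which surround Hodgkin cells in tissue, averaged 5.94 to 6.15 per array over 5 of 5 listed genes, and none of them differed between the lines. Of 7 markers of Hodgkin cells, 4 were higher and 2 lower in U-HO1. The higher ones, with log2 differences, were TRAF1 (3.08), FSCN1 (1.36), CCL17 (0.78) and CD30, the product of TNFRSF8 (0.62). The lower ones were CD40 (-1.95) and CCL22 (-1.78), and IRF4 was not called. Of the B cell markers 4 of 5 were measured and 1, CD22, was lower in U-HO1 by a log2 difference of -2.62. MS4A1 (CD20) read 5.63 to 5.94 on the 12 arrays.

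The microRNA rows read low. Their mean over the 12 arrays had a median of 5.98 and ran from 4.79 to 9.26, against a median of 7.04 for all probe sets. The mean of 155 rows lay at or below that median, and the mean of 34 lay above it. A level at the low end was not shown to be above background, since the table gives no background. The number of arrays limits the precision of every value.

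Few microRNA rows differed between the lines. The difference is U-HO1 minus L-1236 over all 12 arrays, from limma with a mean per group, with p-values adjusted over all probe sets. At an adjusted p under 0.05, 23 of 189 rows (12.2%) were called, 9 higher and 14 lower in U-HO1, beside 35.1% of all probe sets and 41.7% of those with 1 symbol. Of all probe sets 18.0% were higher and 17.1% lower. With a fold of at least 1.5 as well, 6 rows (3.17%) were called, beside 13.0% of all probe sets. All 6 were lower in U-HO1, where the background was 6.22%, and 0 were higher, where it was 6.76%. The values of 12 rows (6.35%) did not overlap between the 6 arrays of each line, beside 23.3% of all probe sets.

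Calls were counted again by level. Among rows at or below the median level, 15 of 155 (9.68%) were called, beside 17.4% of probe sets in that range, and above it 8 of 34 (23.5%) were called, beside 52.8%. At 1.5-fold as well, 3 rows (1.94%) were called in the lower range, beside 4.32%, and 3 (8.82%) in the upper, beside 21.6%. The median difference was 0.0052 for the microRNA rows and 0.016 for all probe sets. Without regard to sign the median was 0.075 against 0.119, and 166 of the 189 rows differed by less than 0.2. In RNA of bulk cells, fewer expressing cells and less RNA per cell cannot be told apart.

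**Figure D1:**
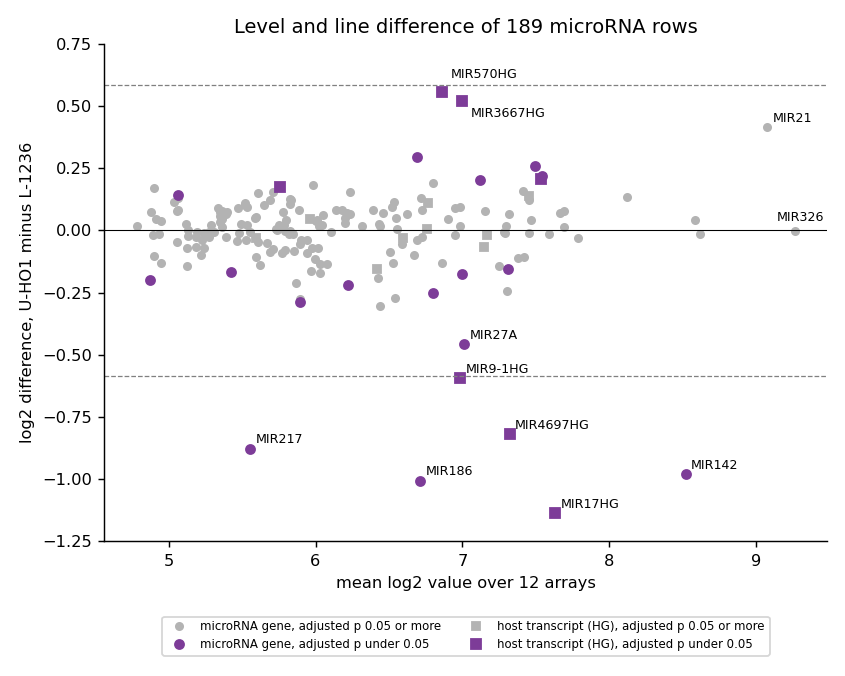
Each point is 1 of the 189 microRNA rows, with its mean log2 value over 12 arrays on the x axis and its log2 difference, U-HO1 minus L-1236, on the y axis. Purple marks an adjusted p under 0.05 (limma), squares are host transcripts, and the dashed lines mark a fold of 1.5. The 6 purple points past the lower line are MIR17HG, MIR186, MIR142, MIR217, MIR4697HG and MIR9-1HG, and no purple point lies past the upper line.

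The calls fell on both kinds of row. Of the 16 host transcripts, 7 (43.8%) were called, 4 higher and 3 lower, beside 35.1% of all probe sets and 41.7% of those with 1 symbol. Their median level was 6.92, with levels from 5.59 to 7.63. Of the 173 microRNA genes, 16 (9.25%) were called, 5 higher and 11 lower, below those shares. Their median level was 5.90, and 17.4% of all probe sets at or below the median level were called. The difference between these shares was not tested. Each kind gave 3 of the 6 rows past a 1.5-fold difference.

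MIR17HG, the host of the miR-17 cluster, which MYC activates and which restrains BCL2L11, showed the largest difference. In L-1236 it read 8.47, 8.20 and 8.28 under the control label and 8.15, 8.35 and 7.73 under the knockdown label. On U-HO1 arrays it read 7.08, 6.96 and 7.23 under the control label and 6.98, 7.15 and 6.96 under the knockdown label. Every L-1236 array lay above every U-HO1 array, and the lowest L-1236 array was labelled knockdown. The means were 8.20 ± 0.26 and 7.06 ± 0.11 (SD, n = 6), a log2 difference of -1.14 (SE 0.10, 95% interval -1.35 to -0.92, adjusted p = 1.95e-06), or 2.2-fold lower in U-HO1. None of the cluster's 6 hairpins has a row of its own among the 189.

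The related clusters on other chromosomes were measured through their hairpins and were not called. From the cluster that holds MIR106A, the log2 differences were -0.07 for MIR106A, -0.10 for MIR92A2 and 0.03 for MIR19B2. From the cluster in an intron of MCM7, a helicase subunit of DNA replication, they were 0.08 for MIR106B, 0.05 for MIR93 and 0.13 for MIR25. MCM7 itself was higher in U-HO1, by 0.47 (SE 0.12, adjusted p = 0.011). MIR106A, MIR106B and MIR93 encode strands with the seed AAAGUGC, the one that miR-17 and miR-20a carry.

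MIR4697HG is a long noncoding transcript named as a microRNA host. The sequence reference gave no hairpin inside it, which may be a gap in that reference. MIR4697HG read 7.48, 7.79 and 7.85 in L-1236 (lowest, median and highest of 6 arrays) and 6.69, 6.90 and 7.11 in U-HO1. The lines did not overlap. The means were 7.73 ± 0.15 and 6.91 ± 0.15 (SD, n = 6), a log2 difference of -0.82 (SE 0.07, adjusted p = 2.05e-06).

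MIR9-1HG is the host of 1 of the genes for miR-9, a microRNA of the nervous system that is also known to target PRDM1 in Hodgkin cells. It read 6.99, 7.32 and 7.42 in L-1236 and 6.46, 6.72 and 6.75 in U-HO1, again without overlap. The log2 difference was -0.60 (SE 0.07, adjusted p = 4.49e-05), just past the 1.5-fold limit. The hairpin row MIR9-1 inside it differed by -0.27 (SE 0.11, adjusted p = 0.072) and MIR9-3 by 0.06 (adjusted p = 0.437), and neither was called.

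On the other side, MIR570HG and MIR3667HG had the largest differences upward in U-HO1, both short of 1.5-fold. As with MIR4697HG, the sequence reference gave no hairpin inside either, which may be a gap in that reference. MIR570HG read 6.51, 6.56 and 6.73 in L-1236 and 6.94, 7.13 and 7.33 in U-HO1. MIR3667HG read 6.66, 6.71 and 6.87 in L-1236 and 7.20, 7.24 and 7.33 in U-HO1. For both, every U-HO1 array lay above every L-1236 array. The log2 differences were 0.56 (SE 0.07, adjusted p = 5.43e-05) for MIR570HG and 0.52 (SE 0.05, adjusted p = 5.7e-06) for MIR3667HG.

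MIRLET7BHG, whose transcript holds MIRLET7A3 and MIRLET7B, was higher in U-HO1 by 0.21 (SE 0.05, adjusted p = 0.0085), with means of 7.43 ± 0.12 and 7.64 ± 0.10 (SD, n = 6). MIR99AHG, which holds MIR99A and MIRLET7C, was higher by 0.18 (SE 0.05, adjusted p = 0.025). The hairpin rows in it differed by 0.0051 for MIR99A and 0.02 for MIRLET7C, without a call. The lines overlapped for both hosts. The other 9 host transcripts were not called: MIR22HG had a difference of -0.16, MIR503HG 0.14 and MIR1915HG 0.11, and the remaining 6 lay between -0.07 and 0.05.

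**Figure D2:**
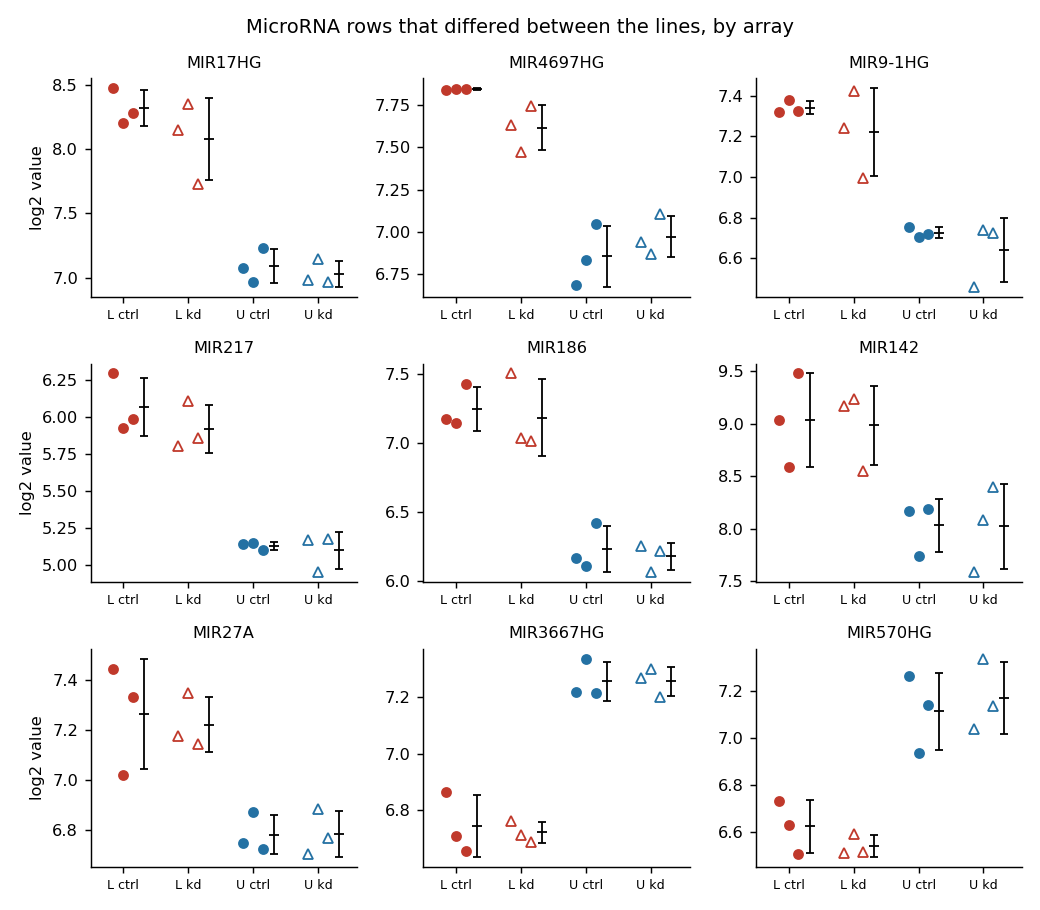
Log2 values of 9 microRNA rows on each of 12 arrays, with L-1236 (L) in red and U-HO1 (U) in blue, filled circles for arrays labelled control (ctrl) and open triangles for arrays labelled knockdown (kd). Bars are the mean ± SD of 3 arrays, and each panel has its own y axis. MIR17HG in L-1236 sits between 7.73 and 8.47 and in U-HO1 between 6.96 and 7.23, and MIR3667HG and MIR570HG lie higher in U-HO1 on every array.

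Among the microRNA genes, MIR186 differed most. It lies in an intron of ZRANB2, which encodes a zinc-finger protein of the splicing machinery. MIR186 read 7.02, 7.16 and 7.50 in L-1236 (lowest, median and highest) and 6.07, 6.20 and 6.42 in U-HO1. No array of 1 line reached the range of the other. The means were 7.22 ± 0.20 and 6.21 ± 0.13 (SD, n = 6), a log2 difference of -1.01 (SE 0.10, 95% interval -1.22 to -0.80, adjusted p = 4.42e-06).

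MIR142, the gene for a microRNA of blood cells, was among the 5 brightest microRNA rows. In L-1236 it read 9.03, 8.59 and 9.48 under the control label and 9.17, 9.24 and 8.55 under the knockdown label. In U-HO1 it read 8.17, 7.74 and 8.19 under the control label and 7.59, 8.09 and 8.39 under the knockdown label. The lines did not overlap, although the lowest L-1236 array and the highest U-HO1 array were close. The means were 9.01 ± 0.37 and 8.03 ± 0.30 (SD, n = 6), a log2 difference of -0.98 (SE 0.18, 95% interval -1.38 to -0.58, adjusted p = 0.00101).

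MIR217 and MIR216A lie within 10 kb of each other on 1 transcript, and both are known from the pancreas. MIR217 read 5.80, 5.95 and 6.29 in L-1236 and 4.95, 5.14 and 5.18 in U-HO1. MIR216A read 5.94, 6.06 and 6.13 in L-1236 and 5.65, 5.73 and 5.86 in U-HO1. Both were lower in U-HO1 without overlap, by -0.88 (SE 0.08, adjusted p = 2.36e-06) for MIR217 and -0.29 (SE 0.06, adjusted p = 0.00187) for MIR216A. Their levels lay below the median of all probe sets in both lines.

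MIR27A was called and its neighbours were not. It is cut from 1 primary transcript with MIR23A and MIR24-2. MIR27A read 7.02, 7.25 and 7.44 in L-1236 and 6.70, 6.76 and 6.88 in U-HO1, with no overlap. Its log2 difference was -0.46 (SE 0.08, adjusted p = 0.00039). The neighbours differed by -0.01 (SE 0.07, adjusted p = 0.921) for MIR23A and -0.12 (SE 0.06, adjusted p = 0.142) for MIR24-2. Whether MIR27A differed from them was not tested.

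Of the rows called upward, MIR196A1, a gene of the HOXB cluster, read 6.41, 6.57 and 6.68 in L-1236 and 6.76, 6.81 and 6.97 in U-HO1 without overlap. Its log2 difference was 0.30 (SE 0.06, adjusted p = 0.00101). The other 4 microRNA genes called upward were MIRLET7I (0.26), MIR320A (0.22), MIR191 (0.20) and MIR122 (0.14). The rows of MIR122, known as the microRNA of liver, were near 5 in both lines, and the lines overlapped for these 4. The other 6 called downward were MIR30E (-0.25), MIR181B1 (-0.22), MIR95 (-0.20), MIRLET7D (-0.18), MIR199A1 (-0.17) and MIR185 (-0.16), and of these 6 only MIR199A1 had lines that did not overlap.

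MIR21, the second brightest microRNA row and a gene widely raised in tumours, varied most between arrays of a group. In L-1236 it read 8.95, 8.41 and 9.45 under the control label and 9.54, 8.78 and 8.09 under the knockdown label. In U-HO1 it read 9.63, 9.04 and 9.49 under the control label and 9.27, 9.14 and 9.14 under the knockdown label. The lines overlapped, and the 4 lowest arrays were from L-1236. The log2 difference was 0.41 (SE 0.23, 95% interval -0.08 to 0.91, adjusted p = 0.202). The SD within groups was 0.474 for MIR21 and 0.377 for MIR142, against a median of 0.096 over the microRNA rows and 0.123 over all probe sets.

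The other bright rows were not called between the lines. MIR326 read 9.07, 9.23 and 9.55 in L-1236 and 9.10, 9.25 and 9.49 in U-HO1, which gave a log2 difference of -0.0040 (95% interval -0.19 to 0.19). The difference was -0.01 (95% interval -0.21 to 0.18) for MIR339 and 0.04 (95% interval -0.13 to 0.21) for MIR210, the microRNA of the hypoxia response.

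In each seed group described next, most rows were not called. Calls were made for 12.2% of the 189 microRNA rows and 35.1% of all probe sets, so few calls in a small group are not a trait of that group. The seed GAGGUAG of let-7 and miR-98, which restrain RAS, HMGA and LIN28 genes, was carried by 10 rows with differences from -0.28 to 0.26 and a median of -0.05. MIRLET7I was called higher and MIRLET7D lower, and 8 were not called. MIRLET7D lies near MIRLET7A1 (-0.05) and MIRLET7F1 (-0.28, SE 0.11, adjusted p = 0.075), neither of them called.

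The seed GUAAACA belongs to 4 rows of the miR-30 group, of which MIR30E was called lower. MIR30C1, from the same host, differed by -0.04 (adjusted p = 0.685). The seed ACAUUCA belongs to 5 rows of the miR-181 group, which tunes antigen receptor signalling in lymphocytes. MIR181B1 was called lower, and MIR181A1, beside it, differed by 0.03. The 5 rows with the seed AGCAGCA, of the miR-15 and miR-16 group that restrains BCL2, ran from -0.30 to 0.18 with 0 called. The 3 rows with the seed AAAGUGC had 0 called.

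Of the microRNA rows, 60 lie on the same strand inside a gene that was measured by a row of its own, 51 host genes in all. Of these hosts 23 (45.1%) were called, beside 41.7% of probe sets with 1 symbol. Counted by pair, with shared hosts repeated, hosts were called in 30 pairs and microRNA rows in 4. Where a host was called and its microRNA row was not, in 26 pairs, the signs matched in 16. The differences of hosts and microRNA rows correlated across the 60 pairs at 0.32, and at 0.15 over 59 pairs without MIR186. Some pairs share a host, so the points are not independent. The median size of the difference was 0.175 for hosts and 0.075 for microRNA rows.

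The 4 pairs with both rows called split evenly in direction. ZRANB2 was lower in U-HO1 with MIR186: it read 10.15 ± 0.05 in L-1236 and 9.50 ± 0.11 in U-HO1 (SD, n = 6), a log2 difference of -0.65 (SE 0.06, adjusted p = 2.44e-06). TANGO2, a gene of cellular lipid handling, was lower by -0.20 (adjusted p = 0.015) with MIR185. DALRD3, a gene of tRNA methylation, was lower by -0.24 (SE 0.07, adjusted p = 0.012) while MIR191 was higher by 0.20 (SE 0.07, adjusted p = 0.032). NFYC, a subunit of the CCAAT-binding factor NF-Y, was higher by 0.26 (SE 0.08, adjusted p = 0.019) while MIR30E was lower by -0.25 (SE 0.07, adjusted p = 0.012).

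VMP1, an autophagy gene that holds MIR21, was lower in U-HO1, at 10.63 ± 0.12 against 11.13 ± 0.13 in L-1236 (SD, n = 6). The log2 difference was -0.49 (SE 0.07, adjusted p = 0.000101), beside 0.41 for MIR21, which was not called. SMC4, a condensin subunit, was higher by 0.51 (adjusted p = 0.0099), and its microRNA rows MIR15B and MIR16-2 differed by 0.18 and -0.03 without a call. FGF13 was higher by 0.84 (adjusted p = 6.92e-07), and MIR504 inside it differed by -0.06 (adjusted p = 0.608).

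**Figure D3:**
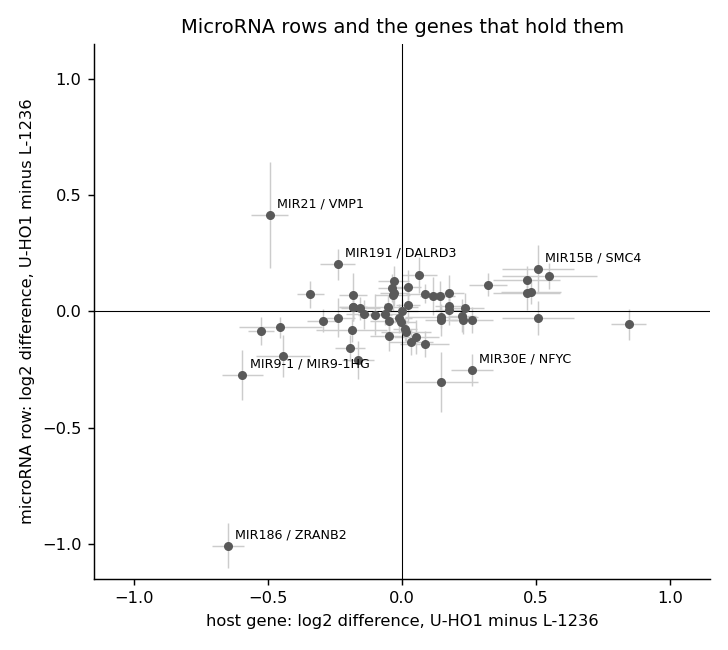
Each point is 1 of 60 pairs of a microRNA row and the gene that holds it on the same strand, with the host's log2 difference, U-HO1 minus L-1236, on the x axis, that of the microRNA row on the y axis, and bars for the SE. MIR186 with ZRANB2 lies low on both axes, MIR21 with VMP1 lies on opposite sides of 0, and most points lie close to 0 on the y axis.

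Genes of the machinery that makes and uses microRNAs differed between the lines in both directions. Of 36 listed genes 34 were measured, and 7 were higher, 8 lower and 19 not called, with 5 past a 1.5-fold difference. The backgrounds were 35.1% and 13.0% of all probe sets. They were 52.8% and 21.6% of those above the median level, where most of these genes read. Of probe sets with 1 symbol, 41.7% were called at any fold. In nuclear processing, 8 of 10 genes were measured, with 2 higher, 1 lower, 5 not called and a median difference of 0.06. DROSHA read 8.95, 9.20 and 9.38 in L-1236 and 10.04, 10.14 and 10.29 in U-HO1. Every U-HO1 array lay above every L-1236 array, and the log2 difference was 0.95 (SE 0.08, adjusted p = 8.64e-07). Its partner DGCR8 differed by 0.04 and was not called. HNRNPA1, an RNA-binding protein, was higher by 0.37 (adjusted p = 0.032) and the helicase DDX5 lower by -0.35 (adjusted p = 0.0039).

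Both export genes were called, in opposite directions. RAN, the GTPase that exportins need, was higher by 0.92 (SE 0.10, adjusted p = 8.66e-06), and by 0.79 on a second, dimmer probe set. The brighter probe set of RAN may read a related copy, which was not tested. XPO5, exportin 5 itself, read 10.12, 10.38 and 10.52 in L-1236 and 9.70, 9.82 and 10.03 in U-HO1. It was lower in U-HO1 without overlap, by -0.53 (SE 0.07, adjusted p = 0.000121).

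In the dicing list, with 4 of 4 measured, PRKRA, a binding partner of DICER1, was higher by 0.97 (SE 0.11, adjusted p = 1.35e-05). ADAR, which edits double-stranded RNA, was lower by -0.44 (adjusted p = 0.0016). DICER1 read 9.35 ± 0.22 and 9.41 ± 0.13 (SD, n = 6), a difference of 0.06 with a 95% interval from -0.16 to 0.29, and was not called. The list's median was 0.10.

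Of 10 effector genes, 2 were higher, 3 lower and 5 not called, with a median of -0.11. The 3 lower were AGO1 (-0.40), the scaffold TNRC6A (-0.26) and FMR1 (-0.49). The 2 higher were TNRC6C (0.47) and the chaperone HSP90AA1 (0.41), which loads Argonaute. Of these called genes, only HSP90AA1 had lines that did not overlap. FMR1 read 8.38 to 9.21 in L-1236 and 8.13 to 8.42 in U-HO1. AGO2, the Argonaute that cuts its targets, differed by -0.05 without a call.

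Of 10 genes of precursor tailing, decay and let-7 control, 1 was higher, 2 lower and 7 not called, with a median of -0.03. TUT4, a uridylyl transferase acting on let-7 precursors, was lower by -0.77 (SE 0.08, adjusted p = 1.02e-05), and TENT2, which adds adenosines, was lower by -0.91 (SE 0.10, adjusted p = 1.61e-05). The exonuclease XRN2 was higher by 0.26. LIN28A (0.10) and LIN28B (-0.04), which block let-7 processing, were not called.

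**Figure D4:**
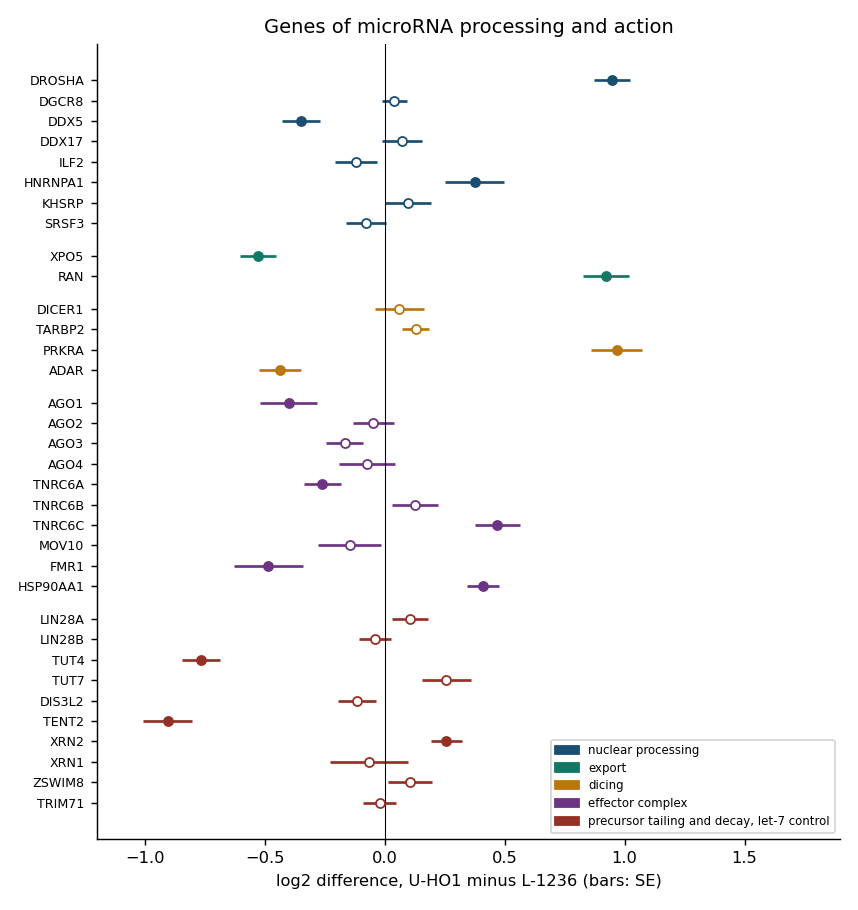
Log2 difference, U-HO1 minus L-1236, of 34 genes of microRNA processing and action, in colours by role, with bars for the SE. Filled points passed an adjusted p under 0.05 (limma) and open points did not. DROSHA, PRKRA and RAN lie furthest right, at 0.95, 0.97 and 0.92, and TENT2 and TUT4 furthest left.

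Known targets were counted for let-7, with 2 rows called, and for miR-155, whose own row is not among the 189. Of 14 listed let-7 targets 10 were measured: 4 were higher, 5 lower and 1 not called, with a median of -0.28. The RNA-binding protein IGF2BP3 was lower by -1.33, IGF2BP2 by -1.08 and ARID3B by -1.14, with -0.64 on its second, dimmer probe set. The brighter probe set of ARID3B may read a related copy, which was not tested. MYC was higher by 0.57 and the receptor TGFBR1 by 0.52. Of 18 listed miR-155 targets 17 were measured, with 6 higher, 3 lower, 8 not called and a median of 0.06. HIVEP2, a zinc-finger factor, was higher by 1.85, PICALM, a clathrin adaptor, by 1.30 and SOCS1, a brake on cytokine signalling, by 0.71. ETS1, a lymphoid transcription factor, was lower by -1.05 and BACH1, a repressor of haem-responsive genes, by -0.78. Called targets lay on both sides in both lists. The background was 35.1% of all probe sets and 41.7% of those with 1 symbol. It was 52.8% of probe sets above the median level, where most of these genes read. The differences given for single targets all had an adjusted p under 0.05 (limma).

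The shRNA comparison gave no called microRNA row. By the submitters' criteria (a 25% false discovery rate and a 1.5-fold change), and equally at an adjusted p under 0.05 (limma), 0 of 189 rows passed in L-1236, in U-HO1 or for the difference between these effects, beside a background of 0% of all probe sets in each. The smallest adjusted p of a microRNA row was 0.925 in L-1236. None of the listed pathway genes was called either.

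At an unadjusted p under 0.05 (limma), 17 rows (8.99%) passed in L-1236, beside 4.77% of all probe sets. Rows that passed and read lower under the knockdown label were 16, or 8.47% of the 189, beside 3.37% of all probe sets. Among the 1542 probe sets that passed in the whole table, 1090 read lower. In U-HO1 2 rows (1.06%) passed, beside 1.05% of all probe sets. Both read lower under the knockdown label, so that share of the 189 was also 1.06%, beside 0.495% of all probe sets. For the difference between the lines' label effects 4 rows (2.12%) passed, beside 2.46% of all probe sets. Rows that passed with a value below 0 were 0 of 189, beside 0.671% of all probe sets. The L-1236 count of microRNA rows passing in either direction was 10 without control replicate 1 and 10 without knockdown replicate 3. It was 8 after quantile normalization and 7 after centring the arrays. The share of all probe sets passing was not counted for these 4 settings, so their counts cannot be set beside a background.

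The sign of the L-1236 differences also moved with the scaling. The knockdown minus control difference was below 0 for 143 rows (75.7%), beside 53.3% of all probe sets, with medians of -0.05 and -0.0091. After quantile normalization the shares were 60.3% and 46.5%, and after centring 41.3% and 30.5%, with medians of 0.02 and 0.05. Over probe sets above the median level alone, 32 of 34 microRNA rows (94.1%) were below 0, beside 38.6%, with medians of -0.12 and 0.042. Without L-1236 control replicate 1 the share was 63.0%, beside 50.8%. In U-HO1 the difference was below 0 for 110 rows (58.2%), beside 51.0%, and U-HO1 minus L-1236 of the label effects was below 0 for 58 rows (30.7%), beside 49.0%. The median of the microRNA rows on single arrays was 6.082, 5.992 and 6.002 for L-1236 labelled control and 6.002, 6.027 and 5.954 for L-1236 labelled knockdown, so the groups overlapped and 1 control array stood highest.

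MIRLET7D was the row with the smallest p for the difference between the lines' label effects. In L-1236 it read 7.13, 7.24 and 7.27 under the control label and 7.07, 6.97 and 6.83 under the knockdown label. In U-HO1 it read 6.80, 6.85 and 6.85 under the control label and 6.97, 6.96 and 7.02 under the knockdown label. The labels did not overlap in either line, and the knockdown label read lower in L-1236 and higher in U-HO1. The row is described here for its small p from these same values, so this separation adds no support. The knockdown minus control difference was -0.26 (SE 0.07) in L-1236 and 0.15 (SE 0.07) in U-HO1, and their difference of 0.41 (SE 0.11) had an adjusted p of 0.9997. The line difference of MIRLET7D was -0.38 over the arrays labelled control alone and 0.03 (adjusted p = 0.859) over those labelled knockdown alone.

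MIR181A2 and MIR30C1 had the smallest p of the microRNA rows in L-1236, ahead of MIRLET7D. MIR181A2 read 5.997, 5.91 and 5.97 under the control label and 5.66, 5.62 and 5.80 under the knockdown label, a difference of -0.27 (SE 0.07). MIR30C1 read 6.20, 5.99 and 5.98 against 5.75, 5.83 and 5.75, a difference of -0.28 (SE 0.08). The labels did not overlap for either row in L-1236, which follows from describing the rows with the smallest p there and adds no support. In U-HO1 the labels overlapped for both. In U-HO1, MIR133B, a microRNA of muscle, had the smallest p, with a difference of -0.25 (SE 0.09). None of these passed the adjustment.

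**Figure D5:**
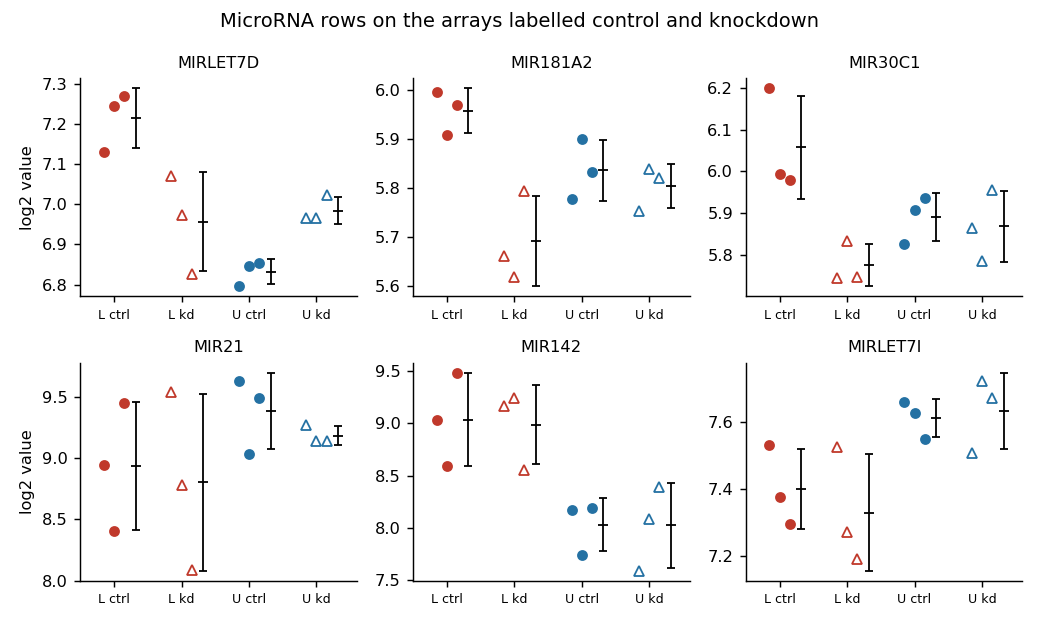
Log2 values of 6 microRNA rows on 12 arrays, with L-1236 (L) in red, U-HO1 (U) in blue, filled circles for arrays labelled control (ctrl), open triangles for arrays labelled knockdown (kd), and bars for the mean ± SD of 3 arrays. Each panel has its own y axis. MIRLET7D reads lower under the knockdown label in L-1236 (-0.26) and higher in U-HO1 (0.15), while MIR21 spreads from 8.09 to 9.54 within the L-1236 arrays labelled knockdown.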

How the data were processed

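The values were those of the authors' deposited table of 12 arrays on a log2 scale, a base taken from their range; for background correction, normalization and summary, the method is not given in the sources used here. Per the submitters' processing notes, R 2.8.1 was the software upstream. Of 32321 probe sets, 19158 had 1 symbol in the platform's annotation, 1388 several and 11775 none; only those with 1 symbol were named, and 0 symbols changed against a current RefSeq table (GRCh38.p14), which also gave hosts and neighbours within 10 kb. No build is named for the files, so no coordinates are given. For a gene outside the microRNA rows with several probe sets, the one with the highest mean stood for it.

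All 12 arrays entered 1 model with a mean for each of 4 groups by lmFit and eBayes of limma 3.58.1 (R 4.3.3), with 8 residual degrees of freedom and all probe sets kept, and Benjamini-Hochberg adjustment ran over the whole table. Differences between lines average both labels. The fit was tested on simulated data. Settings varied were the prior (trended and robust), quality weights per array (statmod 1.5.0), centring, quantile normalization, a replicate block, a filter on dim probe sets, the control or the knockdown arrays alone, each array left out, and, in both lines together, control replicate 3 and knockdown replicate 1 left out, which went against the label in GATA3.

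Rows named were MIR181A2, MIRLET7D, all hosts ending in HG, up to 15 called rows each way, the 5 brightest, the 3 smallest p each way per shRNA comparison, their neighbours within 10 kb and host genes, and up to 4 genes of each list. The rule's genes most like MIR155HG could not be chosen, as it shares its row. Seed groups, rows of related clusters, other host genes and further list genes were named after their values were seen. The rows and lists were chosen with earlier results of these data known.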

Additional observations from a re-analysis of the deposited data

How the results depend on the processing

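Of 4195 probe sets called between the lines at 1.5-fold, each alternative kept the count within 1.5 times (4111 to 4396 with 1 array left out). The 6 microRNA rows called at 1.5-fold were 5 to 7 with 1 array left out and 3 without dim probe sets, where fewer rows were tested. The 23 called at any fold were 18 to 28 with 1 array left out, 8 without dim probe sets and 42 with array quality weights. They were 11 over only the arrays labelled control and 13 over only those labelled knockdown, both with fewer arrays. For the alternatives, the share of all probe sets called at any fold was not counted, so these counts have no background beside them. Without knockdown replicate 1 and control replicate 3 in both lines, 6 rows were called at 1.5-fold and 17 at any fold. Of the 23, 9 kept the call in all alternatives that gave them a value: MIR142, MIR17HG, MIR186, MIR217, MIR27A, MIR3667HG, MIR4697HG, MIR570HG and MIR9-1HG. The other 14 lost it in at least 1, most often MIR185, MIR320A, MIR191 and MIR122. The line difference of MIRLET7D reversed to 0.028 over only the arrays labelled knockdown. The shRNA comparisons had 0 called rows in every alternative run. With the replicate number as a block, 6 rows were called at 1.5-fold, 22 at any fold, and 0 in the shRNA comparisons. Deviations of same-numbered arrays correlated at -0.40 to 0.32 within a line and, across lines, at -0.17 to 0.26 under the control label and 0.14 to 0.21 under the knockdown label. Not every pair was over 0.1, so the numbers were not taken as pairs. Low levels with no measured background limit what the dim rows show.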
